A study of Mus musculus with 4 samples.

Results

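The genes described are the CC, CXC and CX3C chemokines and their receptors that have a probe set with a single symbol. They have a symbol that begins with Ccl or Cxcl and a number, or is Ccr or Cxcr with a number, Cx3cl1 or Cx3cr1. They came to 49 of 19938 genes, 33 ligands and 16 receptors, and each was represented by its probe set with the highest mean level. The arrays were hybridised with RNA of C57BL/6 mouse cells in culture, 1 array for each of 4 groups. The first was marrow mesenchymal stem cells (MSC) grown with 1 ng/ml of basic fibroblast growth factor (bFGF), and the next was MSC grown in the same medium without it. Both were nucleated cells flushed from femurs and tibiae and taken by adherence to plastic, and the labels name no sorting step. The third was osteoblasts released by enzymes from the calvariae of newborn mice, pooled from the later digestions, and the last was embryonic stem (ES) cells, for which the labels used here give no culture conditions. The series compares effects of bFGF on marrow MSC, with osteoblasts and ES cells labelled as controls. Since each group had a single array, differences have no replicate check and carry neither a test nor an error between cultures.

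Chemokines are small secreted proteins that guide migrating cells along a gradient, and they act through receptors that couple to inhibitory G proteins. The CC and CXC classes are named for the spacing of the first cysteines. CXC ligands with a glutamate-leucine-arginine (ELR) motif attract neutrophils through Cxcr2, CC ligands such as Ccl2 attract monocytes, and Cxcl12 made by marrow stroma holds blood stem cells in their niche through Cxcr4. Macrophages, activated fibroblasts and stromal cells all make inflammatory chemokines.

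The upstream sequences of 5 ligands are shown. Ccl3 and Ccl12 were among the ligands with the largest differences with bFGF, and levels of the neighbouring genes Cxcl2, Cxcl1 and Cxcl3 differed widely. Each sequence is the 250 bases before the annotated start in RefSeq, written 5′ to 3′ on the gene's strand. Capitals mark letters that match the NF-kB consensus on either strand.
Cxcl2, GRCm38.p6 chr5:90903649-90903898, plus strand: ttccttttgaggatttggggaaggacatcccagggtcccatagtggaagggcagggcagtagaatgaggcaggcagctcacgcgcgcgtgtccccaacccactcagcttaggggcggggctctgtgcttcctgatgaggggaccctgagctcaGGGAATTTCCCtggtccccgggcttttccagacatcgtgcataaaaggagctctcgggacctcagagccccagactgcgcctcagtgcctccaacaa
Cxcl1, GRCm38.p6 chr5:90890995-90891244, plus strand: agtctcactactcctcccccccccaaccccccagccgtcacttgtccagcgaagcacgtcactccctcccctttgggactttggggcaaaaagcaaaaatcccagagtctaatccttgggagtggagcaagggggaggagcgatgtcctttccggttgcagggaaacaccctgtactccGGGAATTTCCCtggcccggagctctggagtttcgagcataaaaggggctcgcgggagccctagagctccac
Cxcl3, GRCm38.p6 chr5:90785851-90786100, plus strand: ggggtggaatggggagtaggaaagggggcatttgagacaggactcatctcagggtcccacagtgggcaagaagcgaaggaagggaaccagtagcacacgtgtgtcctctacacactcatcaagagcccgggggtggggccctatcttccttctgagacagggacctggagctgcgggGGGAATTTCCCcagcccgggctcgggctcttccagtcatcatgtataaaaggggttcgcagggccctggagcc
Ccl3, GRCm38.p6 chr11:83649379-83649628, minus strand: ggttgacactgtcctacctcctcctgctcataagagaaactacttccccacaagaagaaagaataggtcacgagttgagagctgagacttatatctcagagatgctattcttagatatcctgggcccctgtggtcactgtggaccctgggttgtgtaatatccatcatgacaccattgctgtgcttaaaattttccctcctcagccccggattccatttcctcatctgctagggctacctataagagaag
Ccl12, GRCm38.p6 chr11:82101595-82101844, plus strand: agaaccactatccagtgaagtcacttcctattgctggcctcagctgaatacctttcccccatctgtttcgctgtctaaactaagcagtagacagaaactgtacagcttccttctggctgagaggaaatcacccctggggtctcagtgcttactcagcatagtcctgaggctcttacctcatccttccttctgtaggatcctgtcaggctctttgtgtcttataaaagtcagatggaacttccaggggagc
Cxcl2, Cxcl1 and Cxcl3 carried the same run of 11 bases, GGGAATTTCCC, beginning 97, 71 and 73 bases before the start. Of 27025 genes with an upstream sequence in the table, 14 held this run, and these 3 genes were among them. The run was read off the Cxcl2 sequence after it had been seen. The NF-kB consensus was found upstream of 8 of the 35 chemokine and receptor genes with an entry, 22.9%, and of 4.46% of all genes; it reads almost alike on both strands, so the capital run holds overlapping matches. The 8 were Cxcl1, Cxcl2, Cxcl3, Cxcl10, Ccl9, Ccl20, Ccr3 and Ccr6. The AP-1 motif TGANTCA was found in 4 of the 35 genes, 11.4%, and in 7.82% of all genes, and TATAAA in 10, 28.6%, and in 14.3% of all genes, with both strands searched. A match is a run of letters and was not tested as a binding site.

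Levels are given on the log2 scale, so a difference of 1 is 2-fold. A level was read against a floor, the median of the array's probe sets with a single symbol, which was 6.32 in MSC with bFGF, 6.29 in MSC without, 6.46 in osteoblasts and 6.46 in ES cells. Of the 49 genes, 22 lay above the floor in at least 1 array (44.9%, against 58.6% of all genes), and 27 lay under it in all 4. The number above the floor was 18 (36.7%) in MSC with bFGF, 9 (18.4%) in MSC without bFGF, 17 (34.7%) in osteoblasts and 15 (30.6%) in ES cells. Of all genes 49.6%, 49.7%, 50.0% and 49.7% were above the floor in the same order of arrays. In all 4 arrays 6 of the 49 genes were above it, 12.2%, against 41.3% of all genes. They were the ligands Ccl2, Ccl3, Ccl5, Ccl6, Cxcl1 and Cxcl10. Levels of different probe sets cannot be ranked against each other, so each gene is compared only with itself across arrays.

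**Figure D1:**
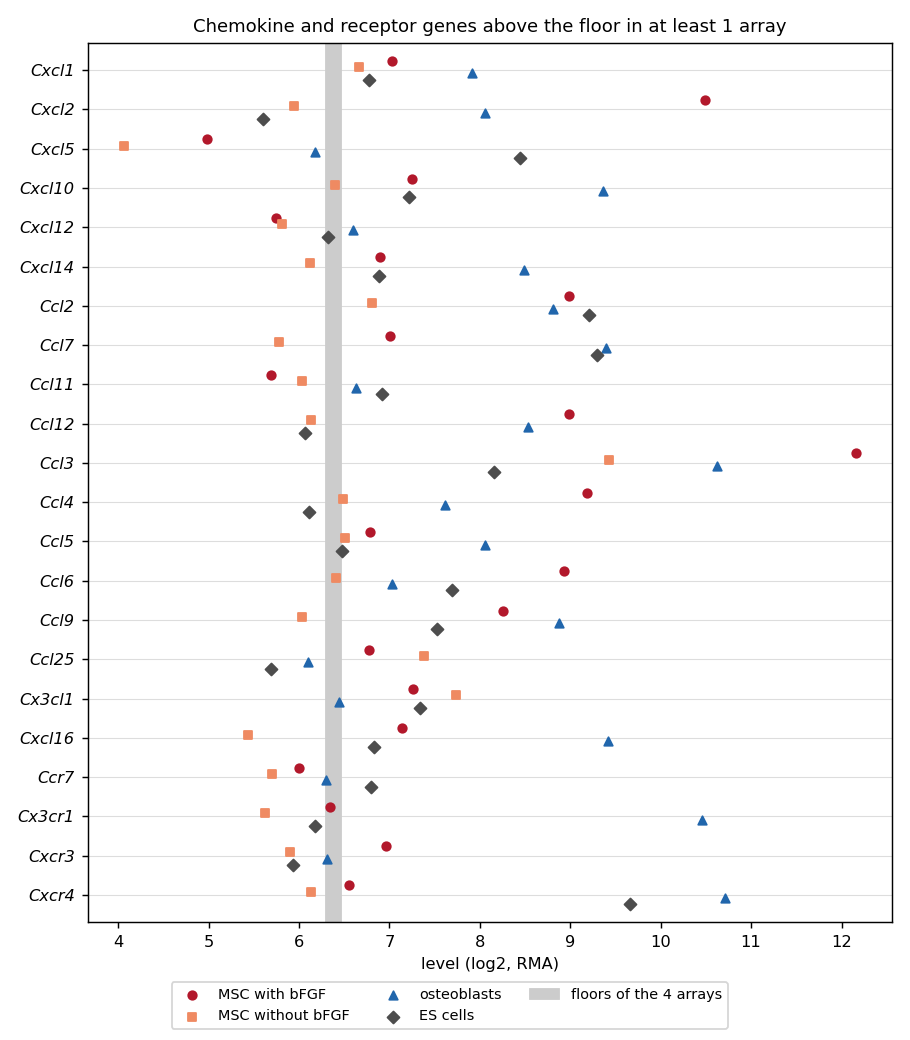
Levels (log2, horizontal axis) of the 22 chemokine and receptor genes above the floor in at least 1 array, with 1 point per array, set slightly apart vertically so that none is hidden; the grey band spans the floors of the 4 arrays. The points for MSC with bFGF lie farthest right for Cxcl2, Ccl12, Ccl3, Ccl4, Ccl6 and Cxcr3, and those for osteoblasts stand far from the other arrays for Cx3cr1, at 10.45.

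MSC with bFGF had higher levels of a group of inflammatory chemokines than MSC without bFGF. Counts take in genes that differed by at least 2-fold and whose higher array lay above the floor. On this count 10 of the 49 genes, 20.4%, were higher with bFGF and 0 were lower, where 2.15% of all genes were higher and 0.246% lower. The 10 were Cxcl2, Ccl12, Ccl3, Ccl4, Ccl6, Ccl9, Ccl2, Cxcl16, Ccl7 and Cxcr3. With the floor at the 75th percentile of each array, 7 were counted, without Cxcl16, Ccl7 and Cxcr3. Over all 49 genes the median difference was 0.12, and over all 19938 genes it was -0.06, so the difference lay in part of the family. The receptor Ccr8 stood at 3.40 with bFGF and 4.49 without, a difference of -1.09, and was not counted because both levels were under the floor. As a measure of technical scatter, differences of 1190 olfactory and vomeronasal receptor genes, most of them silent in such cells, lay between -0.97 and 0.67 in their central 95%. Between the 2 probe sets of 777 other genes the SD of the difference was 0.30. Neither measures variation between cultures. Cxcl2, Ccl12, Ccl9, Ccl7, Cxcl16 and Cxcr3 lay under the floor in MSC without bFGF, where background signal weighs on the size of a difference.

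**Figure D2:**
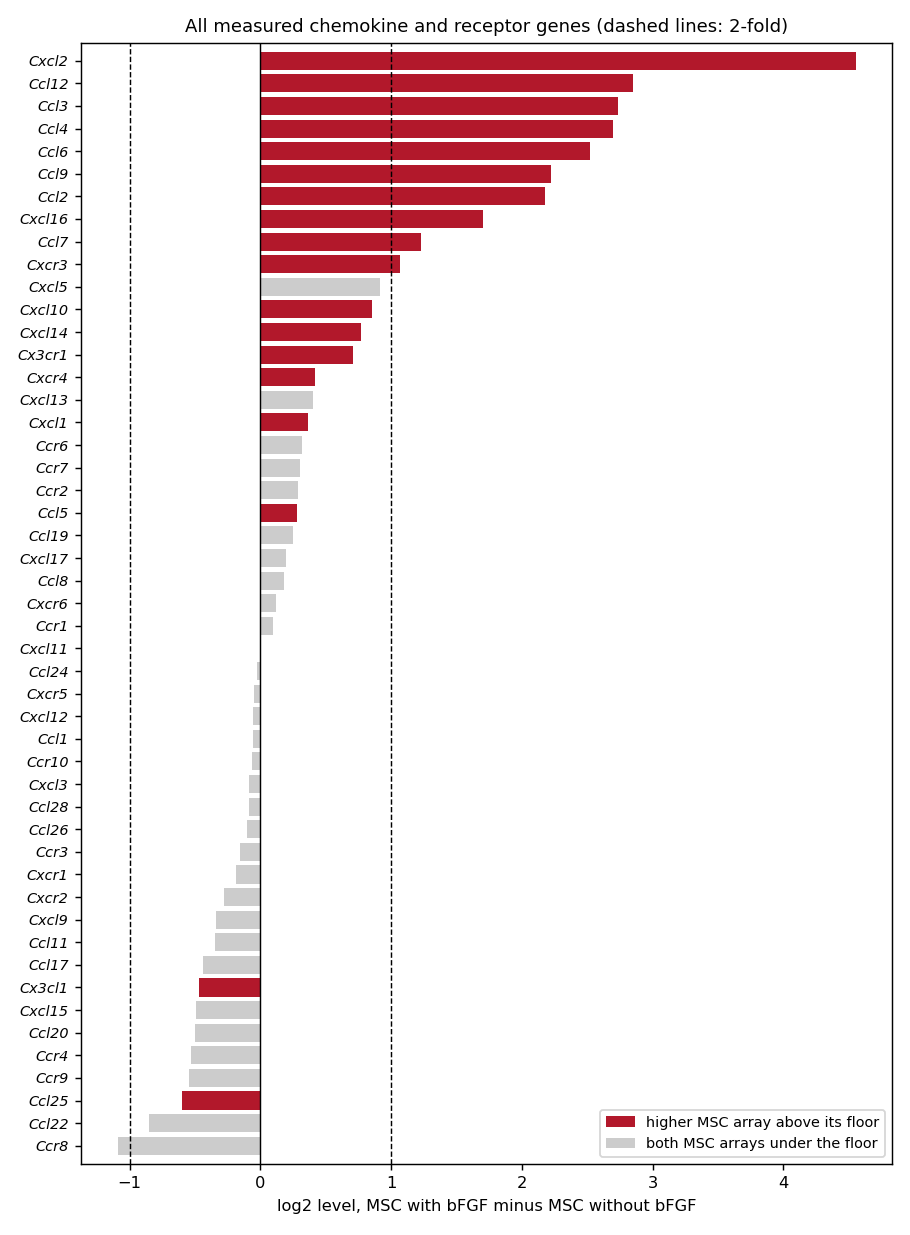
Difference in log2 level, MSC with bFGF minus MSC without bFGF, for all 49 genes, with 1 bar per gene; red bars have the higher array above its floor, grey bars have both arrays under the floor, and dashed lines mark 2-fold. Red bars past the right dashed line number 10, from 1.07 for Cxcr3 to 4.55 for Cxcl2, and no red bar passes the left one.

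Among the ELR ligands, which draw neutrophils, Cxcl2 was the 1 of 5 that differed by 2-fold or more between the MSC arrays. Of all genes 2.15% were higher with bFGF by that measure. Its level was 10.49 in MSC with bFGF, 5.94 in MSC without, 8.06 in osteoblasts and 5.60 in ES cells, and the difference of 4.55 between the MSC arrays corresponds to 23.5-fold. Cxcl1, the next gene along the chromosome and an attractant of the same cells, stood at 7.03, 6.66, 7.92 and 6.78 in the same order of arrays, with a difference of 0.37 between the MSC arrays. Cxcl3 was under the floor in all 4 arrays, at 4.24, 4.33, 4.89 and 5.60. The 3 genes with the shared upstream run thus differed by 4.55, 0.37 and -0.09 between MSC with and without bFGF. Cxcl5, a ligand of Cxcr2 made by fibroblasts and epithelia, had another order. It was high in ES cells alone, with 4.98 in MSC with bFGF, 4.07 in MSC without, 6.18 in osteoblasts and 8.44 in ES cells. The lung-expressed Cxcl15 was under the floor throughout.

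The macrophage inflammatory protein (MIP-1) group of CC ligands was high in MSC with bFGF. Of its 5 genes 4 were 2-fold or more higher than without bFGF, where 2.15% of all genes were. Ccl3 (MIP-1 alpha), an attractant of monocytes and T cells, stood at 12.16 in MSC with bFGF, 9.42 in MSC without, 10.63 in osteoblasts and 8.15 in ES cells. Ccl4 (MIP-1 beta), its neighbour and a ligand of an overlapping set of receptors, stood at 9.18, 6.48, 7.61 and 6.11. Both had their highest level in MSC with bFGF, osteoblasts next and ES cells last, and the MSC arrays differed 6.65-fold for Ccl3 and 6.49-fold for Ccl4. Ccl6 and Ccl9 are rodent ligands made by myeloid cells, Ccl9 also by osteoclasts. Ccl6 stood at 8.93 in MSC with bFGF, 6.40 in MSC without, 7.02 in osteoblasts and 7.69 in ES cells. Ccl9 stood at 8.26, 6.03, 8.87 and 7.52, so that here osteoblasts were highest. Ccl5 (RANTES), an attractant of T cells and monocytes, departed from the group: at 6.79 with bFGF and 6.51 without, the MSC arrays lay 0.28 apart, close to their floors, and osteoblasts were highest at 8.06.

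Among the monocyte attractants 3 of 5 were 2-fold or more higher with bFGF, where 2.15% of all genes were. Ccl2 (MCP-1), the main ligand of Ccr2, stood at 8.99 in MSC with bFGF, 6.81 in MSC without, 8.81 in osteoblasts and 9.21 in ES cells. MSC without bFGF were therefore the array set apart, and the levels of the other arrays lay close together, with osteoblasts 0.40 below ES cells. Ccl12 (MCP-5), a mouse ligand of the same receptor, stood at 8.98, 6.13, 8.54 and 6.07, high in MSC with bFGF and in osteoblasts. Ccl7 (MCP-3) stood at 7.01, 5.78, 9.39 and 9.29, a difference of 1.23 between the MSC arrays with both controls well above them. The eosinophil attractant Ccl11 (eotaxin) lay below the floor with and without bFGF, at 5.69 and 6.03, and above it at 6.63 in osteoblasts and 6.92 in ES cells. Ccl8 was under the floor in all 4 arrays. The ligands of a cluster are close relatives in sequence, and signal shared between their probe sets was not tested.

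The ligands tethered to the cell membrane had their highest and lowest levels in opposite arrays. Cxcl16, which is also a scavenger receptor of macrophages, stood at 7.14 in MSC with bFGF, 5.44 in MSC without, 9.42 in osteoblasts and 6.82 in ES cells. Cx3cl1 (fractalkine), made by neurons, endothelium and stromal cells, stood at 7.26, 7.73, 6.44 and 7.34. Cx3cl1 was thus lowest in the array where Cxcl16 was highest, but its differences were small. Its osteoblast level lay just under the floor, and the MSC arrays differed by -0.47. Only MSC without bFGF and osteoblasts differed by 2-fold, at 1.30. Ccl25, a ligand that guides cells to thymus and gut, was, among genes above the floor, the other ligand with its highest level in MSC without bFGF, at 6.78, 7.38, 6.10 and 5.69. Its second probe set gave 6.12, 6.33, 5.99 and 5.80, with the same highest array and a smaller spread.

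The interferon-induced and homeostatic CXC ligands were not 2-fold higher with bFGF. Cxcl10 (IP-10), an attractant of activated T cells, stood at 7.25 in MSC with bFGF, 6.39 in MSC without, 9.36 in osteoblasts and 7.22 in ES cells. Its relatives Cxcl9 and Cxcl11 were under the floor in all 4 arrays. Cxcl14, a ligand of skin and other epithelia, stood at 6.89, 6.12, 8.49 and 6.89. Cxcl12 (SDF-1), the stromal niche ligand, lay below the floor at 5.75 in MSC with bFGF, 5.81 in MSC without and 6.32 in ES cells. Only the osteoblast array, at 6.60, had it above the floor, by a margin of less than 0.2, and the 4 levels spanned 0.85. The lymphoid and epithelial CC ligands Ccl1, Ccl17, Ccl19, Ccl20, Ccl22, Ccl24, Ccl26 and Ccl28 and the CXC ligands Cxcl13 and Cxcl17 were under the floor throughout. Among the 27 genes under the floor in all 4 arrays the spread between the highest and lowest array ran from 0.21 to 1.90, with the widest for Ccl20, at 4.38 in MSC with bFGF, 4.88 in MSC without, 6.28 in osteoblasts and 6.12 in ES cells.

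Most receptors gave little signal, and 3 of the 4 exceptions were of the CXC and CX3C classes. Of the 16 receptors 4 lay above the floor in at least 1 array. Cxcr4, the receptor of Cxcl12, stood at 6.55 in MSC with bFGF, 6.13 in MSC without, 10.71 in osteoblasts and 9.66 in ES cells. Cx3cr1, the fractalkine receptor carried by monocytes and resident macrophages, stood at 6.34, 5.63, 10.45 and 6.17. Both were therefore high in osteoblasts, and only Cxcr4 was high in ES cells as well. Cxcr3, the T cell receptor for Cxcl9, Cxcl10 and Cxcl11, stood at 6.96, 5.90, 6.31 and 5.93, above the floor in MSC with bFGF alone. Ccr7, which guides dendritic cells and naive T cells to lymph nodes, was above the floor only in ES cells, at 6.00, 5.70, 6.30 and 6.80. The other 12 receptors were under the floor in all 4 arrays, among them the monocyte receptors Ccr1 (4.25, 4.16, 4.28 and 3.64) and Ccr2 (3.82, 3.54, 4.16 and 3.55) and the neutrophil receptor Cxcr2 (3.04, 3.32, 3.14 and 3.41). Thus these receptors of Ccl2, Ccl3 and Cxcl2 had low probe set levels in the arrays where those ligands were high.

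A list of 31 known ligand and receptor pairs was laid over the levels, and 26 had both genes measured. Both partners were above the floor for 2 pairs in MSC with bFGF (Cxcl10 with Cxcr3 and Cx3cl1 with Cx3cr1), 0 in MSC without bFGF, 1 in osteoblasts (Cxcl12 with Cxcr4) and 0 in ES cells. In the array of MSC with bFGF, Cx3cr1 exceeded the floor by less than 0.1. In osteoblasts Cx3cl1, at 6.44, lay just under the floor of 6.46, with Cx3cr1 at 10.45. In ES cells Cxcl12, at 6.32, was also under the floor of 6.46, with Cxcr4 at 9.66. The pair counts thus turn in part on levels near the floor. The ligand alone was above the floor for 8, 7, 10 and 10 pairs in the same order of arrays.

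Against osteoblasts, Cxcl2, Ccl3, Ccl4 and Ccl6 were 2-fold or more higher in MSC with bFGF. The same genes were lower in MSC without it, Ccl6 by less than 2-fold. Smaller differences with bFGF also changed sign, among them Ccl12 (0.45 with bFGF, -2.40 without) and Ccl2 (0.18 and -2.00). In MSC with bFGF 4 of the 49 genes were 2-fold or more higher than in osteoblasts, 8.16%, and 7 were lower, 14.3%, where 4.06% of all genes were higher and 5.26% lower. Those higher were Cxcl2 by 2.43, Ccl6 by 1.90, Ccl4 by 1.57 and Ccl3 by 1.53. Those lower were Cxcr4, Cx3cr1, Ccl7, Cxcl16, Cxcl10, Cxcl14 and Ccl5, from -4.16 for Cxcr4 to -1.27 for Ccl5. In MSC without bFGF 14 genes were lower than in osteoblasts, 28.6%, and 2 were higher, 4.08%, where 7.29% of all genes were lower and 4.49% higher. The receptors Cx3cr1 and Cxcr4 differed by -4.83 and -4.58, Cxcl16 by -3.98 and Ccl7 by -3.61. Cxcl2, Ccl3 and Ccl4, which had exceeded osteoblasts in MSC with bFGF, differed by -2.12, -1.20 and -1.13, and Ccl6 by -0.62. The 2 genes higher in MSC without bFGF were Cx3cl1 by 1.30 and Ccl25 by 1.28. Ccl25 was no longer counted with the mean of its probe sets, at 0.81, and neither gene was with the floor at the 75th percentile. Both comparisons share the osteoblast array, so they are not independent.

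**Figure D3:**
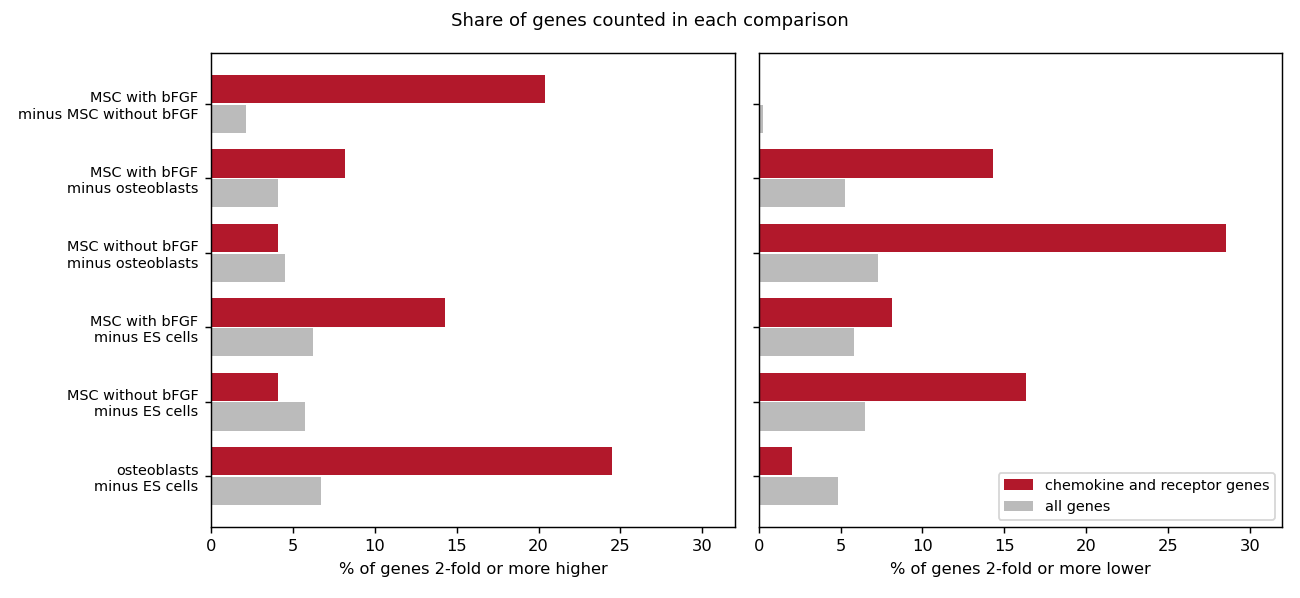
Share of genes (%, horizontal axes) counted as 2-fold or more higher (left) or lower (right) in each of 6 comparisons, red for the 49 chemokine and receptor genes and grey for all 19938 genes. Among the red bars the longest are those of genes lower in MSC without bFGF than in osteoblasts, 28.6%, of genes higher in osteoblasts than in ES cells, 24.5%, and of genes higher in MSC with than without bFGF, 20.4%.

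Against ES cells, MSC with bFGF had 7 genes higher, 14.3%, and 4 lower, 8.16%, where 6.2% of all genes were higher and 5.8% lower. Cxcl2 was higher by 4.89, Ccl3 by 4.01, Ccl4 by 3.07, Ccl12 by 2.92, Ccl6 by 1.23, Ccl25 by 1.09 and Cxcr3 by 1.03. With arrays centred on their medians Ccl25 at 0.97 and Cxcr3 at 0.91 were no longer counted, and with the mean of its probe sets Ccl25 was at 0.70. Cxcl5 differed by -3.46, Cxcr4 by -3.11, Ccl7 by -2.29 and Ccl11 by -1.23. In MSC without bFGF 2 genes were higher, 4.08%, and 8 lower, 16.3%, where 5.71% of all genes were higher and 6.51% lower. Ccl25 and Ccl3 were higher by 1.69 and 1.27, and the lower ones ran from Cxcl5 at -4.38 and Cxcr4 at -3.53 to Ccr7 at -1.10. The share of genes higher in MSC without bFGF was thus near that of all genes in both comparisons, and is no result about chemokines.

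Osteoblasts exceeded ES cells for 12 of the 49 genes, 24.5%, with 1 lower, 2.04%, where 6.73% of all genes were higher and 4.84% lower. Cx3cr1 was higher by 4.28, Cxcl16 by 2.59, Ccl3 by 2.48, Ccl12 by 2.47, Cxcl2 by 2.46 and Cxcl10 by 2.15. Cxcl14, Ccl5, Ccl4, Ccl9, Cxcl1 and Cxcr4 were higher by 1.60, 1.59, 1.50, 1.35, 1.14 and 1.05. With a loess curve removed Cxcr4 was at 0.98 and 11 genes were counted. The gene lower in osteoblasts was Cxcl5, by -2.27. The osteoblast array was highest for 10 of the 22 genes above the floor, MSC with bFGF for 6, ES cells for 4 and MSC without bFGF for 2. Thus 20.4% of the 49 genes, against 16.1% of all genes, were above the floor with osteoblasts highest. For MSC with bFGF the shares were 12.2% and 11.1%. Over all genes, too, osteoblasts were the array most often highest. Both counts are near those of all genes and are no result about chemokines.

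Markers of macrophages differed between the arrays in the same comparisons, and bulk RNA cannot tell more cells of a type from more RNA per cell. Of 12 macrophage markers 9 were above the floor in MSC with bFGF, 6 in MSC without, 11 in osteoblasts and 8 in ES cells. Of all genes 49.6%, 49.7%, 50.0% and 49.7% were above it in the same order of arrays. The count in MSC without bFGF was thus near that of all genes. Median levels of the 12 markers were 9.51, 6.35, 10.55 and 7.03. In MSC with bFGF 9 of the 12 were 2-fold or more higher than without, where 2.15% of all genes were, with a median of 2.48. They included the receptor of macrophage growth factor Csf1r (10.56 with bFGF, 7.31 without) and the pan-leukocyte gene Ptprc (9.40 and 6.08). The markers Mrc1 (4.92 and 4.63), Aif1 (5.84 and 5.31) and Cd163 (4.29 and 4.68) lay below the floor with and without bFGF; in osteoblasts Mrc1 stood at 10.40 and Aif1 at 8.43. The part of these cells in the chemokine levels was not tested. All 10 neutrophil markers were under the floor in all 4 arrays, from a highest level of 5.59 in MSC with bFGF and 5.45 in MSC without, as were all 4 measured B cell markers. Of 7 T and NK cell markers Cd5 alone was above the floor, in MSC with bFGF, at 7.87 against 6.23 without; Cd3d, Cd3e and Cd3g were under it. Of 6 endothelial markers 1 was above it, in ES cells, and of 2 measured megakaryocyte markers 1, in each of the MSC arrays. Of 8 stromal markers 6 were above the floor in MSC with bFGF, 6 in MSC without, 8 in osteoblasts and 7 in ES cells. The shares of all genes are those given beside the macrophage markers. Pdgfrb, Col3a1 and Dcn were 2-fold or more lower with bFGF, where 0.246% of all genes were.

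The labels of the controls were set against the defining markers. Of 7 pluripotency markers 1 was above the floor in MSC with bFGF, 0 in MSC without, 0 in osteoblasts and 5 in ES cells, where their median level was 9.24. Of 8 listed osteoblast markers Bglap, Bglap2 and Spp1 were not among the measured genes, which limits this check. Of the 5 measured 0 were above the floor in osteoblasts. There the osteogenic factor Sp7 stood at 5.36, the mineralization enzyme Alpl at 6.03 and the bone sialoprotein gene Ibsp at 4.53. Alpl was above the floor in ES cells, at 7.64, and just above it in MSC without bFGF, at 6.32. The macrophage gene Lyz2 stood at 13.37 in osteoblasts. In ES cells 8 of the 12 macrophage markers were above the floor, where 49.7% of all genes were, among them Adgre1 at 9.05. Ptprc at 6.02, Fcgr1 at 5.69, Aif1 at 5.75 and Cd163 at 4.28 were under it. The collagen gene Col1a1 stood at 10.92 in the same array, where Ccl2, Ccl7 and Cxcl5 were high. The part of these other cell types in the chemokine levels of the controls was not tested.

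Many chemokine genes lie in clusters, and neighbours did not share 1 pattern. In the RefSeq gene table Cxcl5, Ppbp, Pf4, Cxcl3, Cxcl15, Cxcl1 and Cxcl2 follow each other on chromosome 5 with 0 other coding genes between them. Ppbp and Pf4 are platelet chemokines whose symbols fall outside the rule. At the Cxcl5 end levels were highest in the controls: Ppbp stood at 4.13 in MSC with bFGF, 4.43 in MSC without, 5.95 in osteoblasts and 8.79 in ES cells, and Pf4 at 5.19, 5.45, 8.19 and 8.05. At the other end lay Cxcl2, highest in MSC with bFGF. On chromosome 11 Ccl2, Ccl7, Ccl11, Ccl12, Ccl8 and Ccl1 are adjacent, and so are Ccl5, Ccl9, Ccl6, Ccl3 and Ccl4. In the first of these runs Ccl2, Ccl7 and Ccl12 were higher with bFGF by at least 2-fold, unlike Ccl11, Ccl8 and Ccl1. In the second run all but Ccl5 were.

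Part of the genes that carry the chemokine signal inside the cell was higher with bFGF. Of 30 measured signalling genes, 12 were higher with bFGF by at least 2-fold and 0 lower, where 2.15% of all genes were higher, and the median difference was 0.61. The regulator of G protein signalling Rgs1, which shortens chemokine responses, stood at 7.69 in MSC with bFGF, 4.73 in MSC without, 7.42 in osteoblasts and 3.20 in ES cells, and Rgs18, found in blood cells, at 7.79, 4.90, 7.12 and 3.25. The exchange factors Vav1 and Dock2, which activate Rac in leukocytes, were higher by 2.49 and 1.92. The blood cell GTPase Rac2 was higher by 2.43, whereas the general form Rac1 stood at 10.43 and 10.44. The kinase subunit Pik3cg, which acts below G protein-coupled receptors, was higher by 1.81, and the receptor-silencing arrestin Arrb2 by 1.88. In MSC without bFGF 18 of the 30 were lower than in osteoblasts, where 7.29% of all genes were, and in osteoblasts 14 were higher than in ES cells, where 6.73% of all genes were. The macrophage markers differed in the same comparisons, and their part was not tested.

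**Figure D4:**
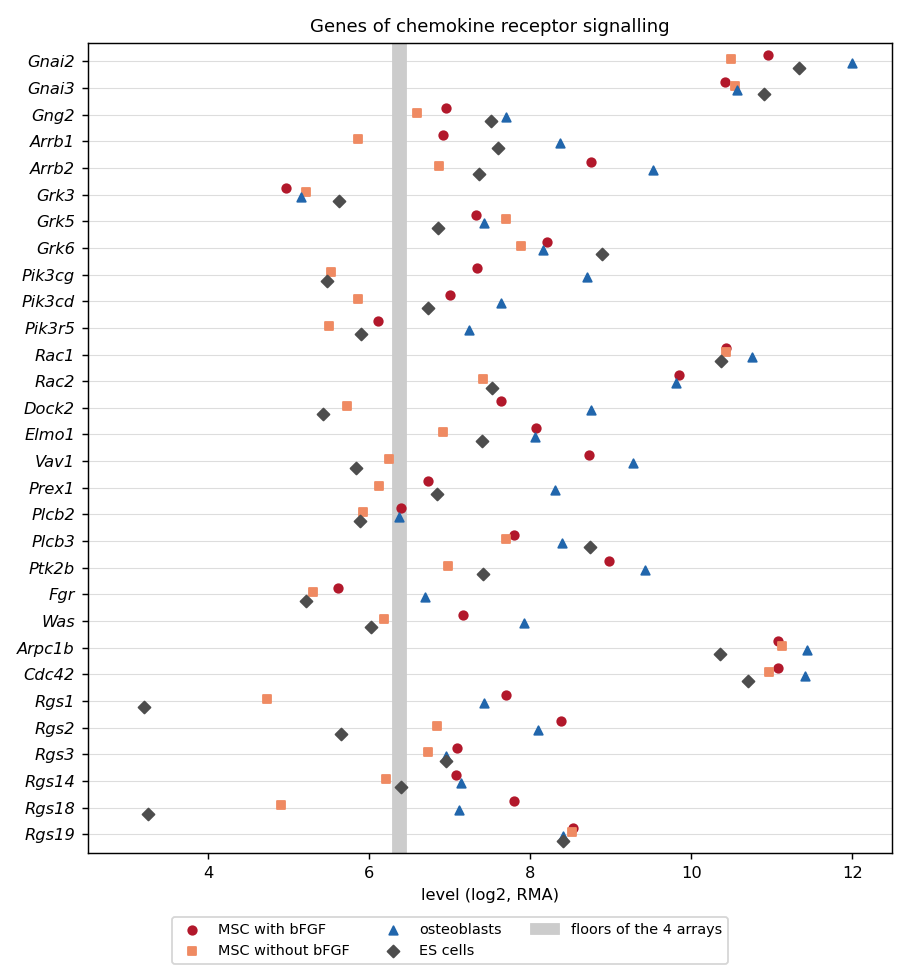
Levels (log2, horizontal axis) of the 30 measured genes of chemokine receptor signalling, with 1 point per array, set slightly apart vertically so that none is hidden, and the floors of the 4 arrays as a grey band. For Rgs1 and Rgs18 the points of MSC with bFGF and osteoblasts lie together above 7, those of MSC without bFGF under 5 and those of ES cells near 3.20, whereas the 4 points of Rac1 lie close together.

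Related receptors and adhesion genes were set beside the members. Among 8 atypical or related receptors 1 was higher by at least 2-fold with bFGF, Ccrl2, which presents chemerin to its receptor, at 7.58 in MSC with bFGF, 5.33 in MSC without, 8.14 in osteoblasts and 4.74 in ES cells. The scavenger receptors Ackr1, Ackr2, Ackr3 and Ackr4 were under the floor in all 4 arrays. Of 6 chemokine and receptor genes outside the symbol rule (Pf4, Ppbp, Xcl1, Xcr1, Mif and Cklf) 0 differed by 2-fold between the MSC arrays, and Mif stood at 11.99 in both. Of 10 measured genes of leukocyte adhesion 5 were higher with bFGF by at least 2-fold, where 2.15% of all genes were. One of them, the integrin gene Itgam, is also among the 12 macrophage markers, of which 9 differed in the same comparison, and their part was not tested. The leukocyte integrin chain Itgb2 was higher by 2.14, the selectin ligand Selplg by 1.77 and the integrin Itgal by 1.36. Icam1, which those integrins bind, stood at 7.48 with bFGF and 6.43 without, and Vcam1, which marrow stroma carries, at 8.84 and 8.77.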

How the data were processed

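RNA of 4 cell cultures was hybridised to an Affymetrix mouse whole-transcript array, 1 array per group. The deposited values were log2 levels per probe set made by the authors with Affymetrix Expression Console and RMA, per the submitters' processing notes; the log2 scale was inferred from the values (1.40 to 14.28), and neither a genome build nor a version is stated by the sources at hand. RMA corrects background, aligns array distributions and summarises probes, so a general change of RNA per cell would not show.

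Of 35556 probe sets 21789 had 1 symbol, 1621 several and 12146 none. Only those with 1 symbol were named, and each of 19938 genes took its probe set with the highest mean; 2 of the 49 genes had several. All 49 matched a RefSeq gene by Entrez identifier, with 0 symbols changed. Every array column was used. A gene was counted at a log2 difference of 1 with the higher array above the floor, the 50th percentile of probe sets with 1 symbol. There were no tests between groups; the number of arrays limits precision. Every member could be named, and other genes only from the lists of cell markers, signalling, adhesion, related receptors and further ligands. The members and lists were chosen with earlier results of these data known. Upstream sequences came from a RefSeq table on GRCm38.p6, and gene order from a RefSeq table of the same assembly.

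Alternatives were no floor, a floor at the 75th percentile, averaging a gene's probe sets, centring on the median, and removing a loess curve (span 0.3). The counting code was run on simulated data with planted differences beyond the threshold and noise smaller than the scatter in these arrays. This checked the code only and says nothing about the error of the counts. Tools were Python 3.11.15, numpy 2.4.6, pandas 2.3.3 and statsmodels 0.14.6.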

Additional observations from a re-analysis of the deposited data

How the results depend on the processing

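Of 60 recomputed counts of chemokine and receptor genes higher or lower 54 stayed within 1.5 times the reported value, and the count of 10 genes higher with bFGF became 7 with the floor at the 75th percentile and was 10 under the other alternatives. For MSC with bFGF minus ES cells the 7 higher genes became 5 with centring, 5 at that floor and 6 with the mean of probe sets, and for osteoblasts minus ES cells the 12 became 11 with loess and 10 at that floor. With no floor, genes lower with bFGF than without numbered 1 (Ccr8), and 11 were lower in MSC with bFGF when set against osteoblasts. With the floor at the 75th percentile, genes higher in MSC without bFGF than in osteoblasts numbered 0, those higher in MSC without bFGF than in ES cells 1 and those lower in that comparison 4. With the mean of probe sets, genes higher in MSC without bFGF than in osteoblasts numbered 1. These counts change by construction, since the floor admits or removes dim genes and the mean lowers Ccl25. Of 213 recomputed differences of counted genes 211 moved by less than the SD between probe sets of a gene, and 0 changed sign. Over all genes, MSC with bFGF minus ES cells had 1236 higher and 1156 lower as reported, but 1006 and 1336 with centring and 1037 and 1262 with loess, so the balance turned. Centring moved all differences of MSC with bFGF minus ES cells by -0.12, and loess moved the median for MSC without bFGF minus ES cells by -0.10. The floor also sets the counts over all genes: higher and lower with bFGF were 429 and 49 as reported, 521 and 189 with no floor, and 172 and 17 at the 75th percentile. At that percentile the counts over all genes higher and lower were 498 and 593 (reported 810 and 1049) for MSC with bFGF minus osteoblasts and 577 and 825 (896 and 1454) for MSC without bFGF minus osteoblasts. They were 759 and 554 (1236 and 1156) for MSC with bFGF minus ES cells, 767 and 665 (1139 and 1298) for MSC without bFGF minus ES cells, and 893 and 559 (1342 and 965) for osteoblasts minus ES cells. No paired analysis was possible because each group had 1 array, and no array could be left out for the same reason. Signal over background limits the genes under the floor, for which a low level does not show absence.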

Other observations

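Probe sets that carry several symbols lay outside the rule and are given as values. The 4 probe sets shared by the near-identical copies of Ccl21, a lymph node ligand of Ccr7, gave the same level in each array, 5.69 in MSC with bFGF, 5.65 in MSC without, 5.51 in osteoblasts and 5.87 in ES cells, all under the floor. The 3 probe sets shared by copies of Ccl27, a skin ligand of Ccr10, were above the floor in all 4 arrays. They ran from 6.70 to 6.87 in MSC with bFGF, from 6.54 to 7.07 in MSC without, from 7.36 to 7.41 in osteoblasts and from 7.32 to 7.41 in ES cells.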
